A study of Mus musculus with 10 samples.

Results

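The genes described here were lower in CD8+ T cells of Ikaros-Zn4-/- mice than in those of wild-type (WT) mice, by at least 2-fold on average. They were chosen by the measured values: a WT mean (5 libraries) of 2 RPKM or more, a mutant mean of at most 0.5 of it, and every mutant library below every WT library within 0 min and within 30 min. RPKM are read counts divided by transcript length and library depth, so they compare levels between genes as well as between libraries. In all, 91 genes of the 12637 in the table met the values. Of these, 13 were left out by name (clone-numbered Gm and Rik genes, Slc, Zfp, T cell receptor and immunoglobulin genes and the like), which left 78.

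The 10 libraries came from 6-week-old female C57Bl/6 mice, 5 of WT and 5 of Ikaros-Zn4-/- genotype. Naive splenic CD8+ T cells (CD44 low or negative) were enriched by negative selection and sorted. They were harvested directly (0 min) or after 30 or 120 min with plate-bound antibodies against CD3 and CD28, which mimic antigen and costimulation. Of each genotype there were 2 libraries each of 0 and 30 min and 1 library of 120 min. The labels do not say whether replicates are separate mice, so all spreads are those between libraries and may be technical, and the germline mutant had developed its T cells without normal Ikaros.

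Ikaros, encoded by Ikzf1, is a zinc finger protein of lymphocytes that binds DNA and works with chromatin remodelling complexes, both at genes it silences and at genes it keeps active. Its DNA-binding domain is an array of zinc fingers, and the -Zn4-/- allele removes the fourth of them. Ikzf1 mRNA was 134 to 171 RPKM in the 5 WT libraries and 206 to 263 RPKM in the 5 mutant libraries. A value per gene does not check the deleted exon.

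Depths recovered from the steps of the RPKM values were 4.504 to 13.3 M reads per library, and a member had a median of 1266 reads over the 5 WT libraries and 376 over the 5 mutant libraries. Snord42b was the 1 member with under 10 reads over all mutant libraries. Markers of naive CD8+ T cells (10 genes, among them Cd8a, Cd8b1 and Ccr7) summed to 1880 to 3550 RPKM in WT and 1730 to 3750 RPKM in mutant libraries. The sums of 13 memory or effector markers, of which Klrg1 had no row, were 216 to 428 RPKM in WT and 353 to 792 RPKM in mutant libraries. Those of 14 B cell markers were 9.61 to 16.3 RPKM in WT and 30.2 to 49.7 RPKM in mutant libraries, of which Cd74 alone had 0.793 to 3.04 and 20.3 to 41.4 RPKM. For 10 of these B cell markers, among them Ms4a1 and Pax5, there was no row to read. The B cell receptor chain Cd79b had 4.93 to 14.8 RPKM in WT and 1.75 to 9.75 RPKM in mutant libraries. The sums of 8 NK cell markers reached 73.6 RPKM in WT and 111 RPKM in mutant libraries, with Gzma at 0 to 0.212 and 2.10 to 9.28 RPKM. Klra8, Klrb1c, Klre1 and Ncr1, which are among these 8, had no row. Sums of 8 markers of immature thymocytes or recent emigrants were 19.2 to 83.4 RPKM in WT and 35.2 to 101 RPKM in mutant libraries, with Nrp1 at 0.267 to 0.394 and 17.7 to 28.2 RPKM. Ccr9, of the same list, went the other way, with 10.7 to 78.1 and 5.25 to 59.3 RPKM. Of the 5 tested for genotype over all times, 2 were higher and 1 was lower in mutant cells (limma, adjusted p below 0.05), against 6.19% and 3.24% of all genes. Rag1, Rag2 and Ptcra had no row. Myeloid markers (10 genes, Lyz2 and Cst3 among them) summed to 28.8 to 52.6 RPKM in WT and 31.6 to 94.5 RPKM in mutant libraries. Of these, Csf1r, Fcer1g, S100a8, S100a9, Spi1 and Tyrobp had no row and add nothing to the sum. The part of such shifts in the lower levels of the 78 genes was not tested, and in bulk RNA fewer cells that express a gene and less RNA per cell cannot be told apart.

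The mutant to WT ratio of means had a median of 0.345 over the 78 genes and ranged from 0.0422 for Fam46a to 0.498 for Hsph1. It was below 0.25 for 14 genes, 0.25 to 0.4 for 36 and 0.4 to 0.5 for 28. For comparison, the median ratio of the 9350 genes with a WT mean of at least 2 RPKM was 1.01. The WT mean had a median of 7.10 RPKM, with 33 genes under 5 RPKM, 31 from 5 to 20 and 14 at 20 or more. So the group holds mostly genes of low to middle level, and its most abundant member in WT cells was Hspa1b at 143 RPKM. Just inside the limit on the ratio were Rnf144a (0.490), Mmd (0.492) and Hsph1 (0.498), and just outside it were Raver2 (0.501), Cnga1 (0.502) and Rtn4rl1 (0.503). These values are close together, so membership near the limit says little about a gene.

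**Figure D1:**
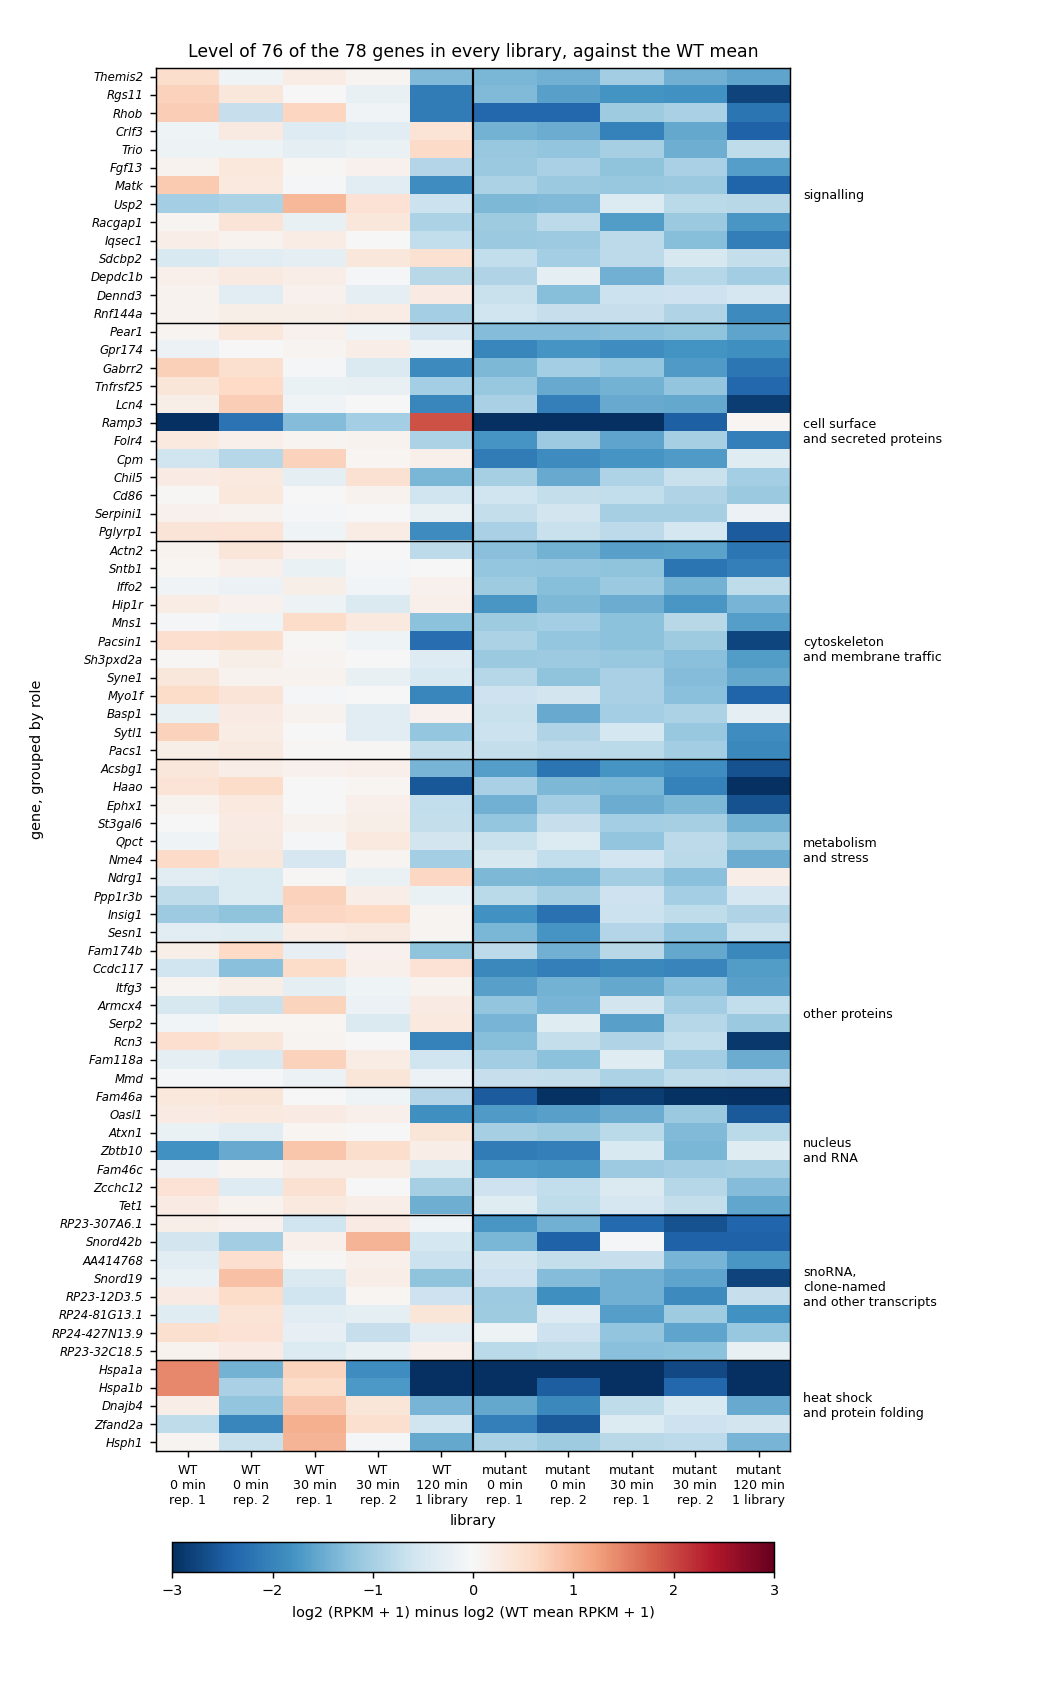
Level of 76 of the 78 genes (rows, grouped by role) in the 10 libraries (columns), as log2 (RPKM + 1) minus log2 of the gene's mean over the 5 WT libraries + 1, with colours ending at -3 and 3. Mutant columns on the right are blue for most genes, the heat shock genes are highest in WT replicate 1 at 0 or 30 min, and Ramp3 is highest in the WT 120 min library.

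The rule fixed the order of the genotypes at 0 and 30 min but asked nothing of the order at 120 min, although that library enters the means. At 120 min, with 1 library per genotype and no test, 73 of the 78 genes were lower in the mutant library and 5 were not. A ratio of at most 0.5 was found for 68 genes at 0 min, 70 at 30 min and 47 at 120 min, and for 37 at all 3 times. The median ratio was 0.359 before stimulation, 0.342 after 30 min and 0.427 after 120 min. Among the 9350 genes with a WT mean of at least 2 RPKM, 52.8% were lower in the mutant at 120 min and 4.17% had a ratio of at most 0.5 there. The 5 genes that were not lower at 120 min were Hspa1b, Hsph1, Zfand2a, Serpini1 and Chil5, of which the first 3 belong to the heat shock response. In 30 of the 78 all 5 mutant libraries lay below all 5 WT libraries whatever the time, as in 0.877% of the 9350 genes. Since the rule used these libraries, the counts describe the group and support nothing. In the additive model of genotype and time, 3.24% of 12203 genes were lower and 6.19% higher in mutant cells (limma, adjusted p below 0.05), and 67 of the 78 were among the lower ones. That contrast is the one the rule used, so the calls of members are no evidence.

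**Figure D2:**
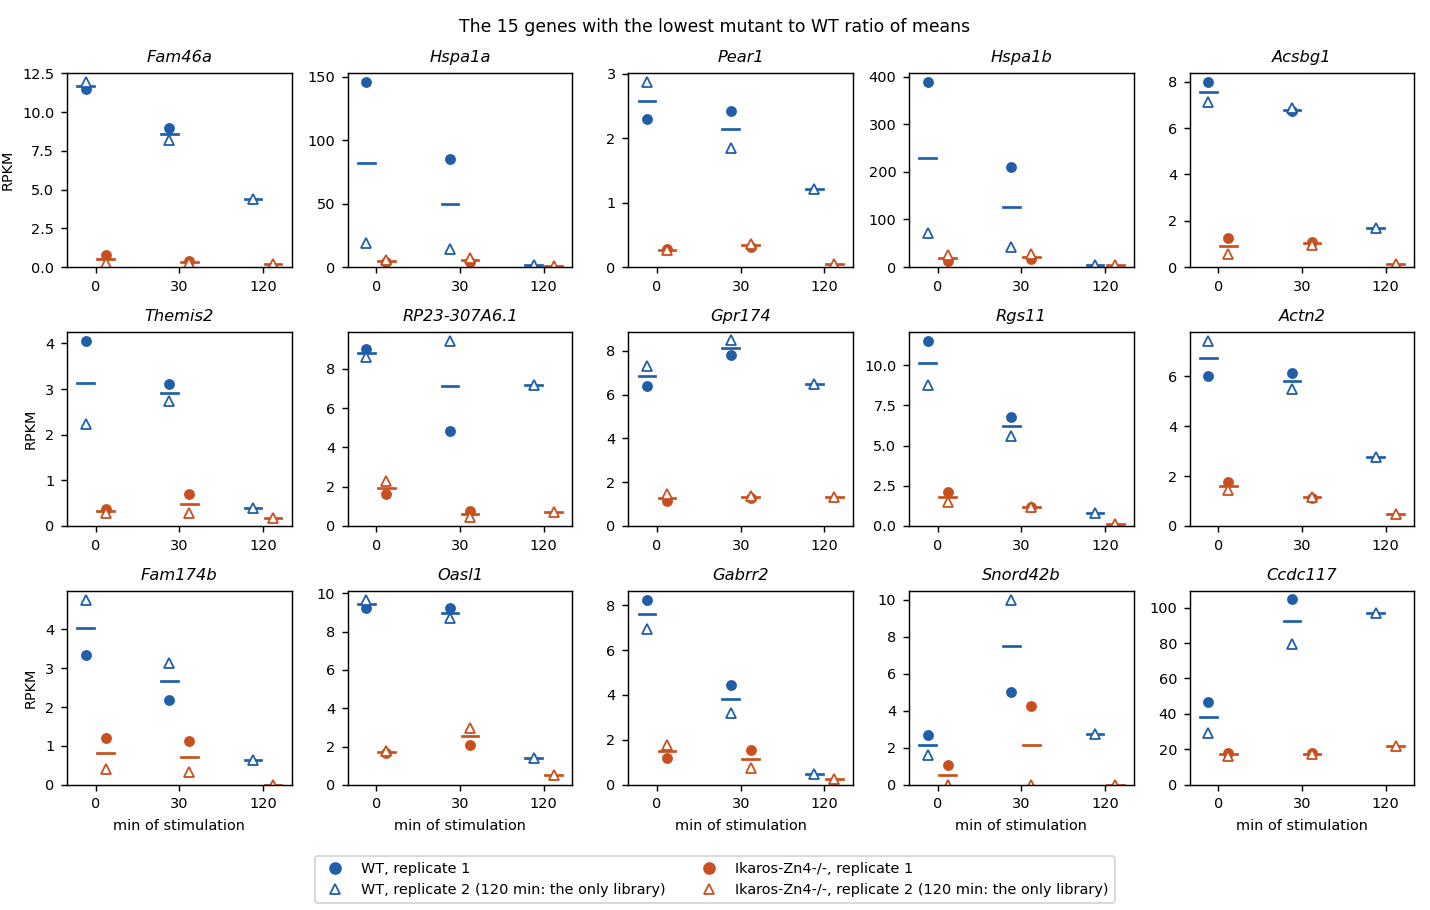
RPKM (linear axes from 0) by time of stimulation for the 15 genes with the lowest ratio, 1 point per library and a bar at each mean. Mutant points lie below WT points at 0 and 30 min in every panel, and the 2 WT points of Hspa1a and of Hspa1b lie far apart.

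The lowest ratio belonged to a gene of mRNA tail metabolism. Fam46a (Tent5a, chromosome 9, 85320439 to 85327348, GRCm38) encodes a non-canonical poly(A) polymerase. It had 11.5 and 11.9 RPKM (0 min), 8.97 and 8.16 RPKM (30 min) and 4.41 RPKM (120 min) in WT cells and 0.763 and 0.273, 0.377 and 0.274 and 0.2096 RPKM at the same times in mutant cells. The highest mutant library was below the lowest WT library, and the ratio was 0.0443 without stimulation, 0.03796 after 30 min and 0.0475 after 120 min. Its relative Fam46c (Tent5c, chromosome 3, 100451628 to 100489324), a poly(A) polymerase of the same family, was reduced less. Fam46c had 22.8 and 27.8 RPKM (0 min), 30.4 and 30.5 RPKM (30 min) and 19.01 RPKM (120 min) in WT and 7.25 and 7.14, 11.7 and 12.2 and 12.6 RPKM in mutant cells, a ratio of 0.3895, again with no overlap between the 5 libraries of each genotype.

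Other members act in the nucleus or on RNA. Oasl1 (2'-5' oligoadenylate synthetase-like), an interferon-induced protein that binds mRNA, had 9.25 and 9.66 RPKM (0 min), 9.26 and 8.696 RPKM (30 min) and 1.42 RPKM (120 min) in WT and 1.67 and 1.79, 2.097 and 2.99 and 0.4999 RPKM in mutant cells. The WT 120 min value lay below the mutant values of 0 and 30 min, and the gene was lowest at 120 min in both genotypes. Zbtb10, a zinc finger repressor, had 0.339 and 0.668 RPKM (0 min), 7.46 and 5.79 RPKM (30 min) and 4.47 RPKM (120 min) in WT and 0.101 and 0.1497, 2.44 and 0.842 and 2.67 RPKM in mutant cells, so that it was under 1 RPKM before stimulation in all 4 libraries. Tet1, which oxidizes methylcytosine in DNA, Atxn1, the ataxin 1 repressor, and Zcchc12 had ratios of 0.438, 0.328 and 0.412.

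At the cell surface the lower genes included receptors for lipids, peptides and TNF family ligands. Gpr174 (chromosome X, 107255878 to 107296769), a receptor for lysophosphatidylserine, had 6.38 and 7.33 RPKM (0 min), 7.82 and 8.49 RPKM (30 min) and 6.51 RPKM (120 min) in WT and 1.12 and 1.44, 1.28 and 1.38 and 1.31 RPKM in mutant cells. Its ratio was 0.187, 0.163 and 0.201 at the 3 times, and all mutant libraries were below all WT libraries. Pear1 (chromosome 3, 87747890 to 87824306), an EGF repeat receptor first known from platelets, was low throughout with 2.29 and 2.87 RPKM (0 min), 2.43 and 1.85 RPKM (30 min) and 1.21 RPKM (120 min) in WT and 0.277 and 0.262, 0.317 and 0.358 and 0.0481 RPKM in mutant cells. Its span, introns included, overlaps other genes, among them Insrr and Lrrc71. Whether their exons overlap was not checked. The library kit does not mark strand, so reads from any shared exon bases could not be told apart.

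Gabrr2, a subunit of GABA-gated chloride channels, had 8.23 and 6.95 RPKM (0 min), 4.47 and 3.18 RPKM (30 min) and 0.498 RPKM (120 min) in WT and 1.21 and 1.79, 1.53 and 0.741 and 0.258 RPKM in mutant cells. Tnfrsf25, the death domain receptor DR3, which costimulates T cells when bound by TL1A, had 8.997 and 10.7 RPKM (0 min), 5.76 and 5.66 RPKM (30 min) and 2.84 RPKM (120 min) in WT and 2.54 and 1.76, 1.93 and 2.44 and 0.525 RPKM in mutant cells. All 5 mutant libraries were below the lowest WT library for Tnfrsf25 but not for Gabrr2, whose WT 120 min library fell under 1 RPKM. Folr4 (Izumo1r), a protein of the folate receptor family, had 16.3 and 14.5 RPKM (0 min), 13.98 and 14.2 RPKM (30 min) and 6.28 RPKM (120 min) in WT and 3.103 and 5.65, 3.66 and 6.05 and 2.39 RPKM in mutant cells. The secreted lipocalin Lcn4 had 18.53 and 27.9 RPKM (0 min), 15.2 and 16.4 RPKM (30 min) and 3.45 RPKM (120 min) in WT and 7.75 and 3.16, 5.05 and 4.93 and 1.404 RPKM in mutant cells. Both were lowest at 120 min in each genotype, and the mutant was lower at each time.

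Ramp3 (chromosome 11, 6658521 to 6677475), which joins the calcitonin receptor-like receptor and sets its ligand preference, was highest at 120 min in both genotypes. It had 2.497 and 6.11 RPKM (0 min), 12.5 and 15.4 RPKM (30 min) and 124 RPKM (120 min) in WT and 1.68 and 1.61, 2.48 and 5.03 and 33.5 RPKM in mutant cells. The mutant 120 min library thus exceeded every WT library of 0 and 30 min, while at each time the mutant was lower, with ratios of 0.382, 0.269 and 0.2703. Cpm, a membrane carboxypeptidase, had 10.04 and 8.23 RPKM (0 min), 26.2 and 16.5 RPKM (30 min) and 17.6 RPKM (120 min) in WT and 2.89 and 3.4995, 3.88 and 4.13 and 12.1 RPKM in mutant cells, and its ratio was 0.188 at 30 min and 0.686 at 120 min. The costimulatory ligand Cd86 had a ratio of 0.423, the peptidoglycan-binding protein Pglyrp1 0.477, the protease inhibitor Serpini1 0.457 and the chitinase-like Chil5 0.361. The 12 surface and secreted proteins had ratios from 0.118 to 0.477 with a median of 0.298.

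Of 14 genes of signalling, Crlf3, which encodes a cytokine receptor-like protein, was the most abundant in WT cells. It had 53.3 and 70.2 RPKM (0 min), 44.001 and 46.1 RPKM (30 min) and 76.97 RPKM (120 min) in WT and 21.3 and 20.1, 13.4 and 19.3 and 9.996 RPKM in mutant cells. The genotypes were farthest apart at 120 min, when the WT library was the highest and the mutant library the lowest of its genotype. Rgs11 (chromosome 17, 26202951 to 26211324), which speeds GTP hydrolysis by G protein alpha subunits, had 11.5 and 8.77 RPKM (0 min), 6.79 and 5.596 RPKM (30 min) and 0.793 RPKM (120 min) in WT and 2.09 and 1.48, 1.21 and 1.195 and 0.129 RPKM in mutant cells. Themis2, a relative of the T cell signalling protein Themis, had 4.05 and 2.23 RPKM (0 min), 3.11 and 2.73 RPKM (30 min) and 0.402 RPKM (120 min) in WT and 0.365 and 0.288, 0.698 and 0.282 and 0.176 RPKM in mutant cells. Themis itself, with 10.3 to 25.2 RPKM in WT and 9.59 to 20.6 RPKM in mutant libraries, was outside the group.

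The tyrosine kinase Matk, which phosphorylates the inhibitory tail of Src family kinases, had 12.5 and 8.72 RPKM (0 min), 6.74 and 5.31 RPKM (30 min) and 1.18 RPKM (120 min) in WT and 3.09 and 2.66, 2.57 and 2.64 and 0.497 RPKM in mutant cells. Rhob, a small GTPase, had 36.5 and 12.8 RPKM (0 min), 33.9 and 19.8 RPKM (30 min) and 4.28 RPKM (120 min) in WT and 3.41 and 3.396, 9.75 and 10.5 and 3.91 RPKM in mutant cells. WT replicate 1 was 2.85-fold above WT replicate 2 at 0 min and 1.72-fold above it at 30 min. Exchange factors and regulators of small GTPases were also among the members: Trio (0.332), Iqsec1 (0.403), Racgap1 (0.3898), Depdc1b (0.428) and Dennd3 (0.478), each with its mutant to WT ratio of means. Iqsec1, an exchange factor for Arf GTPases, and Racgap1, a Rac GTPase-activating protein of cytokinesis, were the more abundant ones, with WT means of 19.04 and 15.9 RPKM. The ubiquitin ligase Rnf144a, the deubiquitinase Usp2, the non-secreted growth factor relative Fgf13 and the syntenin Sdcbp2 had ratios of 0.4903, 0.3704, 0.332 and 0.426.

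Genes of the cytoskeleton and of membrane traffic formed a group of 12 with ratios from 0.214 to 0.489. Actn2 (chromosome 13, 12269426 to 12340760), an alpha-actinin best known from muscle, had 6.02 and 7.43 RPKM (0 min), 6.14 and 5.49 RPKM (30 min) and 2.78 RPKM (120 min) in WT and 1.77 and 1.44, 1.11 and 1.17 and 0.471 RPKM in mutant cells. All mutant libraries lay below all WT libraries. Its relatives Actn1, at 189 to 291 RPKM in WT and 152 to 255 RPKM in mutant libraries, and Actn4 were far more abundant and not members. Pacs1, which sorts cargo at the trans-Golgi network, was the most abundant of the 12, with 43.1 and 45.8 RPKM (0 min), 39.1 and 39.004 RPKM (30 min) and 22.8 RPKM (120 min) in WT and 22.9 and 21.6, 21.3 and 17.98 and 9.19 RPKM in mutant cells. Its SD in the 4 groups of 2 libraries was at most 2.34 RPKM, and at each time the mutant libraries were below the WT libraries.

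Hip1r, which links clathrin coats to actin, had 18.54 and 17.2 RPKM (0 min), 14.2 and 11.4 RPKM (30 min) and 17.5 RPKM (120 min) in WT and 4.02 and 5.61, 4.98 and 3.97 and 5.39 RPKM in mutant cells. Sytl1, a Rab27-binding protein of secretory vesicles, had 19.5 and 13.7 RPKM (0 min), 11.5 and 9.01 RPKM (30 min) and 4.65 RPKM (120 min) in WT and 7.15 and 5.82, 7.797 and 4.75 and 2.46 RPKM in mutant cells. Pacsin1, a membrane-bending endocytic protein, had 15.9 and 16.2 RPKM (0 min), 11.3 and 9.88 RPKM (30 min) and 1.44 RPKM (120 min) in WT and 5.19 and 4.32, 4.06 and 4.72 and 0.778 RPKM in mutant cells. Pacsin1 and Sytl1 were lowest at 120 min in both genotypes, whereas Hip1r in WT cells was at 120 min about where it had been at 0 min. The others were the nesprin Syne1 (0.388), the class I myosin Myo1f (0.433), the podosome scaffold Sh3pxd2a (0.359), the syntrophin Sntb1 (0.294), Basp1 (0.465), Mns1 (0.3201) and Iffo2 (0.301), with the ratio of means given for each.

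In metabolism and stress, Acsbg1 (chromosome 9, 54604877 to 54661870), an acyl-CoA synthetase for long-chain fatty acids, was reduced most. It had 7.98 and 7.15 RPKM (0 min), 6.72 and 6.86 RPKM (30 min) and 1.69 RPKM (120 min) in WT and 1.27 and 0.554, 1.08 and 0.962 and 0.151 RPKM in mutant cells. Sesn1, a sestrin that restrains mTORC1 signalling, was the most abundant, with 40.6 and 40.1 RPKM (0 min), 60.6 and 62.3 RPKM (30 min) and 54.6 RPKM (120 min) in WT and 19.5 and 14.5, 27.6 and 22.7 and 32.01 RPKM in mutant cells. Sesn3, its relative, had 39.1 to 91.2 RPKM in WT and 42.1 to 84.1 RPKM in mutant libraries and was no member. Ephx1, the microsomal epoxide hydrolase, had 40.5 and 46.7 RPKM (0 min), 37.6 and 41.99 RPKM (30 min) and 22.3 RPKM (120 min) in WT and 13.2 and 17.9, 12.9 and 14.2 and 5.36 RPKM in mutant cells.

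Haao, a dioxygenase on the route from tryptophan to NAD, had 26.4 and 29.3 RPKM (0 min), 19.8 and 20.5 RPKM (30 min) and 2.57 RPKM (120 min) in WT and 9.64 and 7.09, 6.95 and 4.11 and 1.42 RPKM in mutant cells. Insig1, which holds the sterol sensor complex in the endoplasmic reticulum, had 7.98 and 7.26 RPKM (0 min), 28.2 and 27.7 RPKM (30 min) and 19.4 RPKM (120 min) in WT and 4.39 and 3.05, 11.2 and 10.3 and 9.31 RPKM in mutant cells. The sterol gene Hmgcs1, with a ratio of 0.803, did not pass the test of genotype over all times (limma adjusted p = 0.153). Other members of this role were Ndrg1 (0.397), the mitochondrial nucleotide kinase Nme4 (0.396), the glutaminyl cyclase Qpct (0.393), the glycogen-targeting phosphatase subunit Ppp1r3b (0.407) and the sialyltransferase St3gal6 (0.338).

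**Figure D3:**
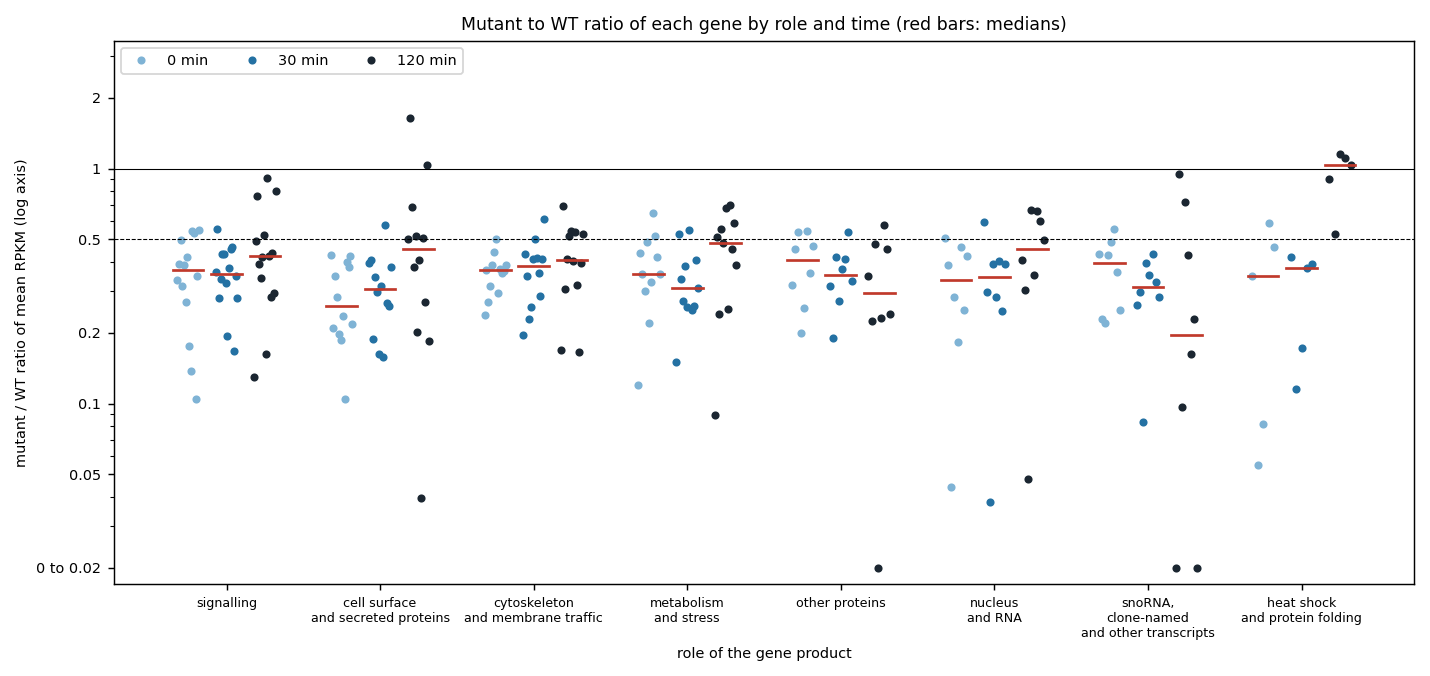
Mutant to WT ratio of mean RPKM (log axis) of each gene at 0, 30 and 120 min, by role, with a red bar at each median and 3 genes listed at 0 RPKM in the mutant 120 min library drawn at the lower edge. Most points lie under the dashed line at 0.5 at 0 and 30 min, and the heat shock genes lie near 1 at 120 min, with Hspa1a at 0.528.

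Of the 8 other proteins, Ccdc117 (chromosome 11, 5528887 to 5542187) stood out by level. It had 47.003 and 29.2 RPKM (0 min), 105 and 79.5 RPKM (30 min) and 96.9 RPKM (120 min) in WT and 18.1 and 16.5, 17.9 and 17.3 and 21.7 RPKM in mutant cells. WT cells were higher after stimulation than before, and the mutant libraries stayed between 16.5 and 21.7 RPKM. Fam174b had 3.34 and 4.75 RPKM (0 min), 2.19 and 3.14 RPKM (30 min) and 0.6402 RPKM (120 min) in WT and 1.204 and 0.415, 1.13 and 0.324 and 0 RPKM in mutant cells, and is listed at 0 in the mutant 120 min library. Rcn3, a calcium-binding protein of the secretory pathway, had 34.3 and 30.8 RPKM (0 min), 25.1 and 23.4 RPKM (30 min) and 5.05 RPKM (120 min) in WT and 9.21 and 14.1, 12.3 and 13.7 and 2.303 RPKM in mutant cells. The ratios of Itfg3 (Fam234a), Fam118a, Armcx4, Serp2 and Mmd were 0.2901, 0.464, 0.326, 0.363 and 0.492.

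The last 8 members are small nucleolar RNAs, pseudogenes and non-coding transcripts, and their values need more care. RP23-307A6.1 (Gm19585, a long non-coding RNA, chromosome 17, 51986415 to 52163976) had 9.03 and 8.61 RPKM (0 min), 4.84 and 9.42 RPKM (30 min) and 7.17 RPKM (120 min) in WT and 1.63 and 2.27, 0.748 and 0.442 and 0.693 RPKM in mutant cells. It overlaps another annotated transcript, AC161258.1, on its own strand. Snord42b, a box C/D small nucleolar RNA within Rpl23a, had 2.699 and 1.63 RPKM (0 min), 4.9995 and 9.96 RPKM (30 min) and 2.76 RPKM (120 min) in WT and 1.09 and 0, 4.25 and 0 and 0 RPKM in mutant cells, where 3 of 5 libraries are listed at 0. With 69 bases and about 4 reads in all mutant libraries together, its level is hardly measured. Snord19, which lies within Gnl3, had 13.5 and 29.6 RPKM (0 min), 11.3 and 18.1 RPKM (30 min) and 6.27 RPKM (120 min) in WT and 9.87 and 5.84, 5.14 and 4.56 and 1.43 RPKM in mutant cells, while Gnl3 itself had a ratio of 1.12. Snord19 has 76 bases, with about 54 reads over all WT libraries and 19 over all mutant libraries, so its level is poorly measured too.

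Both RP23-12D3.5 (0.341) and RP23-32C18.5 (0.485) lie in the Ms4a6 cluster, on the opposite strand of Ms4a6b and of Ms4a6c. Ms4a6b had a ratio of 1.04 and Ms4a6c of 0.865. RP24-427N13.9 (0.444) is antisense to Gramd1a, which was at 0.811, and RP24-81G13.1 (0.411) and AA414768 (0.317) are processed pseudogenes. Without strand, reads from any exon bases that an antisense transcript shares with its partner cannot be told apart. Reads of a pseudogene may come from its parent gene. Over the group, 38 of the 78 genes overlap another annotated gene by span, introns included, and the share over all genes was not computed. Of the 78, 70 are protein coding and 8 are not. That is 89.7%, against 85.9% of genes with a WT mean of at least 2 RPKM.

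Heat shock genes made up 5 members, and WT replicate 1 was high for each of them. The inducible HSP70 chaperones Hspa1a and Hspa1b, their exchange factor Hsph1 (of the HSP110 family), the HSP40 co-chaperone Dnajb4 and the proteasome-associated Zfand2a are classical targets of heat shock factor 1, which binds inverted repeats of the unit GAA. Hspa1b (chromosome 17, 34956436 to 34959238) had 388 and 72.01 RPKM (0 min), 209.7 and 42.5 RPKM (30 min) and 3.57 RPKM (120 min) in WT and 12.5 and 25.03, 16.5 and 27.03 and 4.11 RPKM in mutant cells. Hspa1a (chromosome 17, 34969190 to 34972156) had 146 and 19.2 RPKM (0 min), 85.4 and 13.96 RPKM (30 min) and 1.73 RPKM (120 min) in WT and 3.67 and 5.39, 4.08 and 7.36 and 0.916 RPKM in mutant cells. WT replicate 1 was the highest library at 0 and at 30 min for both, 5.39 to 7.57-fold above WT replicate 2 at 0 min, and the mutant libraries lay under WT replicate 2 by a smaller margin.

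The same held to a lesser degree for the other heat shock members. Hsph1 had 109 and 64.9 RPKM (0 min), 210.5 and 99.5 RPKM (30 min) and 34.98 RPKM (120 min) in WT and 53.3 and 49.2, 57.7 and 59.4 and 38.7 RPKM in mutant cells. Dnajb4 had 27.9 and 10.1 RPKM (0 min), 42.6 and 31.3 RPKM (30 min) and 8.54 RPKM (120 min) in WT and 7.71 and 5.55, 13.8 and 17.3 and 7.73 RPKM in mutant cells. Zfand2a had 26.9 and 11.1 RPKM (0 min), 98.5 and 65.1 RPKM (30 min) and 30.1 RPKM (120 min) in WT and 10.5 and 7.23, 34.5 and 29.8 and 31.3 RPKM in mutant cells. In all 5 the WT replicate 1 value exceeded that of replicate 2 at both times. With WT replicate 1 of 0 and 30 min left out, the ratio of means was 0.368 for Hspa1a, 0.433 for Hspa1b, 0.627 for Dnajb4, 0.639 for Zfand2a and 0.777 for Hsph1. Only Hspa1a and Hspa1b of the 5 then still met the rule, as did 61 of all 78 members (85 genes in the table did). Among the 17 members that no longer met it was Rhob, at 0.504. This alternative was chosen after seeing the data. How the libraries came to differ was not tested.

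Relatives outside the group were read from a list of 20 chaperone and co-chaperone genes, chosen after the members were known but not by their values. Of the 19 tested, 0 were called lower and 0 higher in mutant cells over all times (limma, adjusted p below 0.05), and 2 had an unadjusted p below 0.05. The HSP40 gene Dnajb1 had 316 and 187 RPKM at 0 min in WT and 110.0 and 105 RPKM in mutant cells, a ratio of 0.519 over all times (limma adjusted p = 0.1). Hspb1, which was low, had 2.98 and 0.218 RPKM at 0 min in WT and 0 and 0.431 RPKM in mutant cells, a ratio of 0.0797 over all times (limma adjusted p = 0.164). Of the 19 relatives, 11 were higher in WT replicate 1 than in replicate 2 at 0 min and 13 at 30 min. The constitutive HSP70 gene Hspa8 had 110.0 and 107 RPKM at 0 min in WT and 84.1 and 102 RPKM in mutant cells. Hspa8 and Hsf1, which encodes the heat shock factor, had ratios of 0.989 and 1.01 (limma adjusted p = 0.992 and 0.958).

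**Figure D4:**
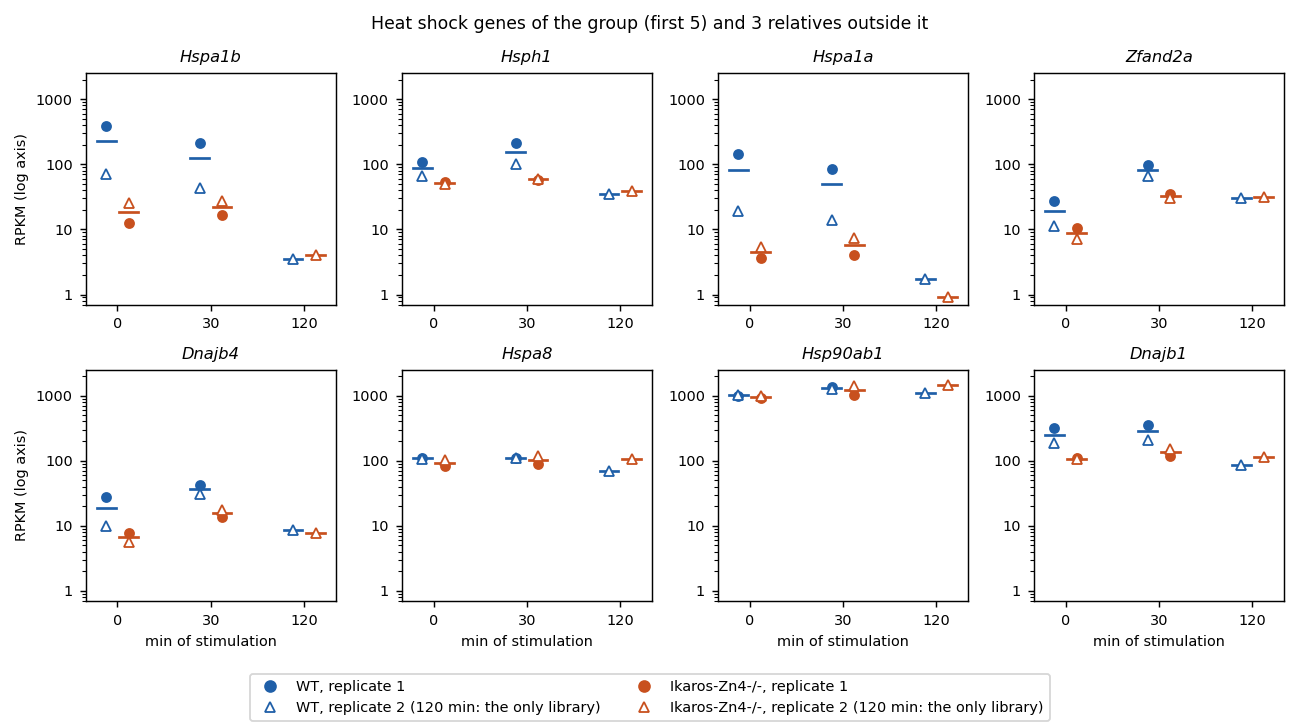
RPKM (log axis, the same in all panels) by time of stimulation for the 5 heat shock members and for Hspa8, Hsp90ab1 and Dnajb1, 1 point per library and a bar at each mean. WT replicate 1 (filled blue circles) lies above WT replicate 2 in all 5 member panels at 0 and 30 min, and at 120 min the member ratios were 0.528 (Hspa1a) to 1.15 (Hspa1b).

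Promoter sequence of the heat shock members is shown because all of them carry a pair of inverted GAA units, GAANNTTC or TTCNNGAA, in the 250 bases before an annotated start. Sequences are from RefSeq (GRCm38.p6), 5' to 3' in the sense of the gene, with the pair in capitals and some of the bases around it.
Hspa1a, chr17:34972241-34972320, minus strand: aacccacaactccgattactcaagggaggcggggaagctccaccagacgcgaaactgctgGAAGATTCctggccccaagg
Hspa1b, chr17:34959323-34959402, minus strand: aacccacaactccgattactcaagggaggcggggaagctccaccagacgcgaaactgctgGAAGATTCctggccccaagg
Dnajb4, chr3:152193846-152193919, minus strand: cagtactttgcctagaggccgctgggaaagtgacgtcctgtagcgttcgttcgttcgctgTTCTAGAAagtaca
Zfand2a, chr5:139484668-139484741, minus strand: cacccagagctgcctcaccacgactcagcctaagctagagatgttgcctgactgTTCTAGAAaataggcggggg
Hsph1, chr5:149636350-149636429, minus strand: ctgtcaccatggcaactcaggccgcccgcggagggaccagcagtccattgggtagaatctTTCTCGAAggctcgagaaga
The windows of Hspa1a and Hspa1b are identical, and over the whole 250 bases 247 positions agree. These genes are near-identical copies 9952 bases apart, so how their reads were split between them is uncertain. The Dnajb4 window precedes a start inside the annotated gene, and 27 bases of the Hsph1 window lie in an exon of Hsph1. A pair was found in 6 of the 7 windows of heat shock members (85.7%), in 12.8% of all 32851 windows in the RefSeq table, in 10% of the 8356 windows of genes with a WT mean of at least 2 RPKM and in 8.22% of 73 windows of the other members. Overlapping windows of Hsph1 hold the same pair, and Hspa1a and Hspa1b are copies, so the separate sites are fewer than 6. Each pattern is its own reverse complement, so both strands were covered.

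TGGGAA, the core often given for Ikaros binding, was searched on both strands of the same windows, which covered 60 of the 78 genes. It was found in 23.8% of the members' 80 windows, 21.6% of all windows and 19.4% of those of genes with a WT mean of at least 2 RPKM. These shares are close, and a match is a description of letters, not of binding. Among the most reduced genes with a match outside their own exons were Acsbg1, Lcn4 and Rhob, shown with the match in capitals (TTCCCA where it lies on the other strand).
Acsbg1, chr9:54662028-54662105, minus strand: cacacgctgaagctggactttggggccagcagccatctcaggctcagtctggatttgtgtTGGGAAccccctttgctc
Lcn4, chr2:26671508-26671532, minus strand: gactgtgTTCCCAccccaaacctga
Rhob, chr12:8500063-8500140, minus strand: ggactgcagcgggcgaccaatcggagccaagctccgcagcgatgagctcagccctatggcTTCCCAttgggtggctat
The median GC content was 61.4% in the members' windows and 60.4% in those of genes with a WT mean of at least 2 RPKM, with 13 and 17 CpG sites per 250 bases.

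The 78 genes lie on 19 chromosomes. Chromosome 17 holds 10 of them (12.8%), against 5.23% of the genes with a WT mean of at least 2 RPKM, and 5 of these 10 fall into 2 stretches. Nme4, Rgs11 and Itfg3 lie together, with Rgs11 and Itfg3 end to end at 498 bases and Nme4 at 107349 bases from Rgs11, and Hspa1a and Hspa1b are the other stretch. Chromosome 11, which carries Ikzf1, holds 5 members (6.41%, against 8.78%), of which Ramp3 at 5.03 Mb and Ccdc117 at 6.16 Mb are nearest to Ikzf1; whether that position bears on their values was not tested. The other 73 members lie on other chromosomes.

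The rule did not compare times, but its WT mean was taken over libraries of all times. It could thus admit genes for being high before or after stimulation. The ratio of means likewise weighs most the libraries in which a gene is high. Of the 78, 6 had a WT mean under 2 RPKM at 0 min: Zbtb10 (0.503), Usp2 (0.904), Ppp1r3b (1.24), Armcx4 (1.39), Sdcbp2 (1.5) and Ndrg1 (1.76). They passed through their 30 or 120 min libraries, and their changes with stimulation are given without a test. Over both genotypes 10 of the 78 genes rose and 3 fell at 30 min (limma, adjusted p below 0.05), where 6.51% of the 12203 genes tested rose and 12.5% fell. Among the 72 with a WT 0 min mean of 2 RPKM or more, 8 rose and 3 fell. The median log2 change of the 78 was -0.09 and that of all genes -0.13, on the log2 (RPKM + 1) scale, and 43 of the 78 lay above the median of all genes. Changes of single genes are given relative to that median, while the adjusted p tests the deposited change.

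Zfand2a rose by 2.09 (SE 0.28, limma adjusted p = 0.00696) and Insig1 by 1.68 (SE 0.11, limma adjusted p = 0.00101). Both calls held under all alternatives run, with adjusted p up to 0.0363 and 0.0112. Zbtb10 and the deubiquitinase Usp2, chosen in part by their stimulated libraries, had changes of 1.88 and 1.35. The size for these low genes depends on the pseudocount: the deposited change of Zbtb10 was 1.75 with 1 RPKM added and 3.15 with 0.1, and that of Usp2 was 1.21 and 1.89. Ramp3 rose by 1.32 (SE 0.26, limma adjusted p = 0.0254) and Dnajb4 by 1.23 (SE 0.30, limma adjusted p = 0.0456). Cpm had a change of 0.82, given without a test, since its ratio was 0.188 at 30 min and 0.686 at 120 min. Ccdc117, Sesn1 and Fam46c also rose, by 0.78, 0.70 and 0.59 (limma adjusted p = 0.0369, 0.02 and 0.018). The calls of Ramp3, Dnajb4, Cpm, Ccdc117, Sesn1 and Fam46c were each lost in 4 to 7 of the 8 analyses that left out 1 library. In each of those analyses fewer samples were tested. The deposited log2 change was then 0.93 to 1.44 for Ramp3 (1.18 with all libraries), 0.75 to 1.44 for Dnajb4 (1.10), 0.53 to 0.84 for Cpm (0.69), 0.48 to 0.82 for Ccdc117 (0.65), 0.47 to 0.67 for Sesn1 (0.57) and 0.39 to 0.53 for Fam46c (0.46). Of the 8 libraries of 0 and 30 min, Ramp3 stayed called only without WT 0 min replicate 2 or mutant 30 min replicate 1, Dnajb4 and Ccdc117 only without WT 0 min replicate 1, and Cpm only without WT 30 min replicate 2. Sesn1 was lost without any of the 4 WT libraries or mutant 30 min replicate 1, and Fam46c without WT 0 min replicate 1, either WT 30 min library or mutant 0 min replicate 2. Over all alternatives, these calls had adjusted p up to 0.0759 for Ramp3, 0.14 for Dnajb4, 0.0995 for Cpm, 0.117 for Ccdc117, 0.0721 for Sesn1 and 0.0649 for Fam46c.

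The 3 falls were RP24-427N13.9 at -0.83 (SE 0.18, limma adjusted p = 0.0142), Myo1f at -0.39 (SE 0.11, limma adjusted p = 0.0222) and RP23-32C18.5 at -0.34 (SE 0.10, limma adjusted p = 0.0245). RP24-427N13.9 was no longer called without WT 0 min replicate 2 (adjusted p = 0.0551, from 0.00519 upward over its alternatives). Myo1f was not called after either rescaling or without any library of 0 min or of WT 30 min, and RP23-32C18.5 not after quantile normalization or without any of these or mutant 30 min replicate 1, with adjusted p up to 0.0807 and 0.0971. The number of members called at 30 min was 8 or 6 when the first or the other WT library of 0 min was left out. It was 5 without WT replicate 1 and 8 without WT replicate 2 of 30 min, and 7 and 6 when mutant libraries of 0 min were left out in that order. With quantile-normalized values 12 members rose and 1 fell. Median-ratio scaling gave 10 rises and 2 falls among members, and 1118 rises and 835 falls among all genes.

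By 120 min 10 of the 78 genes had risen and 41 had fallen, where 19.3% of all genes rose and 40.4% fell. Among the 72 with a WT 0 min mean of 2 RPKM or more, 8 rose and 41 fell. The falls are not free of the rule. Rgs11, Matk, Pacsin1, Themis2 and Hspa1a, for example, had WT 120 min values of 0.793, 1.18, 1.44, 0.402 and 1.73 RPKM. Such genes passed the WT mean of 2 RPKM through their 0 and 30 min libraries. Hspa1b and Haao, with ratios of 1.15 and 0.553 at 120 min, met the limit on the ratio through the same libraries. The count of falls therefore describes the group and is no test of it against all genes. The median log2 change of the 78 was -0.60 and that of all genes -0.32, and 29 of the 78 lay above the median of all genes. The split of the calls rests on the scaling: median-ratio scaling gave 20 rises and 30 falls (3650 and 3649 among all genes), and quantile-normalized values gave 22 and 26. With 1 library of each genotype at 120 min, its spread was taken from the replicated groups, and the 0 min libraries are the same as in the contrast at 30 min.

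Ramp3 rose by 4.49 (SE 0.32, limma adjusted p = 7.7e-05) relative to the median of all genes, the largest rise among members. Zbtb10 and Ndrg1, a gene induced by hypoxia and differentiation, had changes of 2.10 and 1.59, given without a test for the reason above. With 0.1 RPKM added in place of 1, the deposited change went from 1.79 to 3.30 for Zbtb10 and from 1.27 to 2.00 for Ndrg1. Cpm and Zfand2a rose by 1.58 and 1.56 (limma adjusted p = 0.00124 and 0.0171). The largest falls were those of Hspa1b at -3.22 and Hspa1a at -2.60, both given without a test. Both start from the unequal WT libraries described above, and the call of Hspa1a was lost without either mutant 0 min library, after quantile normalization and with replicate number as a block. Haao fell by 2.16 and Rcn3 by 1.87, also given without a test. Pacsin1 and Myo1f fell by 1.93 and 1.81, given without a test.

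By role, against the 40.4% of all genes that fell and 19.3% that rose, 8 of 12 surface and secreted proteins fell at 120 min and 2 rose, and 8 of 12 genes of the cytoskeleton and membrane traffic fell and 0 rose. Among signalling genes 8 of 14 fell and 1 rose, and among genes of metabolism and stress 6 of 11 fell and 3 rose. Of the 8 genes of the nucleus and RNA 2 rose and 4 fell, of the 8 other proteins 1 rose and 2 fell, of the 8 snoRNAs, clone-named and other transcripts 0 rose and 3 fell, and of the 5 heat shock genes 1 rose and 2 fell. These counts describe roles that were assigned with the members known, and no difference between roles was tested. Many of the falls are of genes that the rule could admit through their 0 and 30 min libraries. Pglyrp1, Rgs11 and Matk are examples, with changes of -1.67, -1.64 and -1.56, given without a test. Insig1 (1.51) and Sesn1 (0.98) were higher at 120 min as they had been at 30 min.

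**Figure D5:**
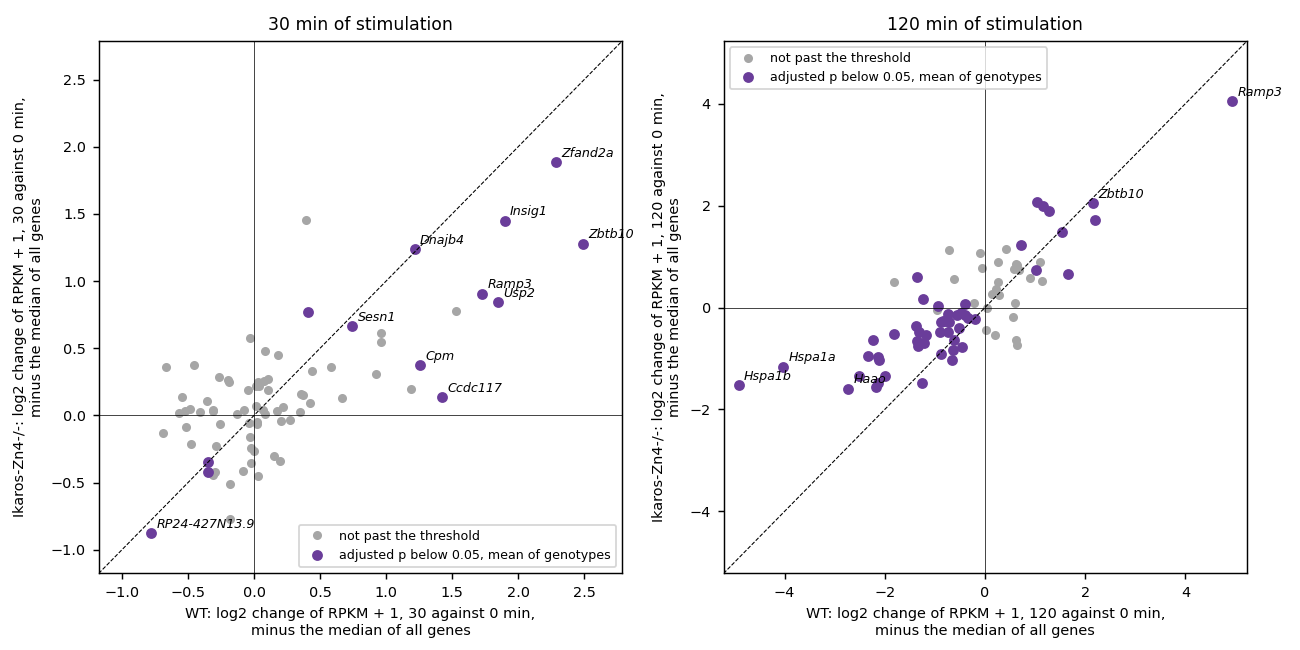
Change of the 78 genes with stimulation in WT (x axis) and mutant cells (y axis), as log2 of RPKM + 1 at 30 min (left) or 120 min (right) against 0 min, minus the median of all genes, with genes past the threshold for the mean of both genotypes in purple. At 30 min Zfand2a, Zbtb10 and Insig1 lie at the upper right, and at 120 min Ramp3 lies farthest up and Hspa1b farthest left.

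Whether the response at 30 min differed between genotypes was tested as an interaction. It called 0 of the 78 genes, and 0% of all genes in either direction (limma, adjusted p below 0.05), while 6 members and 656 of all genes had an unadjusted p below 0.05. Ccdc117 had the widest gap among members, with changes of 1.43 in WT and 0.14 in mutant cells relative to each median. Zbtb10 had 2.49 in WT and 1.28 in mutant cells, and Rhob had 0.39 and 1.45. None of these gaps passed the test, which does not show that the responses were alike. Insig1 had changes of 1.90 in WT and 1.45 in mutant cells.

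Genes of related families that are not members were counted from lists drawn up for this group, with the same test of genotype over all times, in which 3.24% of all genes were lower and 6.19% higher in mutant cells. In the Ikaros family 4 of 5 genes were higher and 0 lower in mutant cells, among them Ikzf2 (Helios) by 1.19 and Ikzf3 (Aiolos) by 1.12 on the log2 scale (limma adjusted p = 0.000161 and 1.3e-05). Of 20 chemokine and other G protein-coupled receptors 4 were lower and 1 was higher, Gpr183 and Gpr171 at -0.58 and -0.57 (adjusted p = 0.0175 and 0.0147) against Cxcr3 at 3.27 (limma adjusted p = 8.41e-07). Of 23 cytokine receptors 2 were lower, among them Ifngr1 at -1.07 (limma adjusted p = 0.00374), and 3 were higher. Of 22 adhesion molecules 2 were lower, among them Itga4 at -0.88 (limma adjusted p = 0.000103), and 4 were higher.

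Among 20 other costimulatory and inhibitory receptors 1 was lower and 5 were higher, with Slamf7 at 1.45 (limma adjusted p = 0.00268). Of 23 genes of the type I interferon response besides Oasl1, 1 was lower and 5 were higher, among them its relative Oasl2 at 1.17 (limma adjusted p = 0.000145). Oasl1 and Oasl2 thus lay on opposite sides: Oasl2 had 2.75 to 4.56 RPKM in WT and 6.87 to 11.7 RPKM in mutant libraries. In the cytoskeleton list besides Myo1f, 0 of 15 were lower and 2 higher, Vim at 1.00 and Flna at 0.33 (limma adjusted p = 0.00217 and 0.0333). In other lists, 7 of 12 memory or effector markers were higher and 0 lower, as were 6 and 0 of 25 T cell receptor signalling genes and 5 and 0 of 16 genes of MHC class I and antigen presentation. Of 26 T cell transcription factors 6 were higher and 2 lower, and of 13 genes of the NuRD complex, a partner of Ikaros, 0 were higher and 1 was lower (Mta3 at -0.53, limma adjusted p = 0.0252).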

How the data were processed

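The authors deposited 1 table of RPKM values, with a row per gene and a column per library. TopHat2 2.0.12, TopHat and HTSeq 0.6.1 and the build mm10 (GRCm38) are named in the submitters' processing notes. Annotation, gene lengths and settings were not given in the sources used here, and per the labels' protocols libraries were single-end (TruSeq v2 kit, which does not mark strand). Members and gene lists were chosen with earlier results of these data known, and roles were assigned after the members were known. Values of every library are given for the 15 lowest ratios, the 10 highest WT means and up to 4 genes of a role by WT mean, and stimulation changes for the 6 largest rises and falls past the threshold (all of them at 30 min). The values of 2 members are not reported here, though counts and medians include them.

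limma 3.58.1 (R 4.3.3) was fitted to log2 (RPKM + 1), two-sided, with Benjamini-Hochberg adjustment at 0.05 over 12203 genes whose mean reached 0.5 RPKM. Stimulation and interaction used a mean for each group (4 residual degrees of freedom), and genotype an additive model with time (6). The fits were tested on simulated data. The pseudocount understates changes of low genes. Depth was recovered from RPKM steps: 65.7% to 71.2% of values below 200 reads were whole within 0.01 read. Positions and biotypes come from GENCODE M21, promoter windows from RefSeq. Python 3.11.15 was used for tables and plots.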

Additional observations from a re-analysis of the deposited data

How the results depend on the processing

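The number of genes that met the rule was 50 with a ratio of at most 0.4 and 220 with one of at most 0.67, and 79 to 92 when 1 library was left out. Members called at 30 min numbered 21 with the replicate block (12 up, 9 down), and 5 to 12 without 1 library, while at 120 min 45 to 52 were called without 1 library. Same-numbered libraries were not shown to be paired: the correlations of their deviations across groups were 0.0369 to 0.23, all positive, with 2 numbers only. With the replicate block 1037 genes were higher and 530 lower in mutant cells over all times. Genes that differed between genotypes over all times numbered 1150 with all libraries and 714 to 1031 without 1 library, with 714 without WT 30 min replicate 1. The interaction at 30 min called 0 members under each alternative. Of the values of named changes with stimulation under alternatives, 328 kept their call, 58 were no longer past the threshold and 0 changed direction. The rule's condition on overlap favours genes whose replicates lie close together, and without it 90 genes were chosen.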
